A study of Mus musculus with 6 samples.

Results

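In a search for squamous and simple epithelium, 8 genes were followed through single sorted cells of mouse colon tumors: the squamous keratins Krt5, Krt14 and Krt15, the simple keratins Krt8, Krt18, Krt19 and Krt20, and Trp63. The 8 members were taken by name from 19069 genes listed over 6 plates. All 8 were listed on plates 1, 2, 4 and 5, and 6 of them on plates 3 and 6, where a missing gene was counted as 0. Colon tumors had been induced with azoxymethane and dextran sulfate sodium, and cells without EPCAM, CD45 and CD31 on their surface were sorted singly into plates of 384 wells for SORT-seq, so that fibroblasts were enriched and epithelium was depleted. The Zeb1Fib-Ctrl mice (plates 1, 3 and 4) lacked the Col6a1Cre transgene. The Zeb1Fib-deleted mice (plates 2, 5 and 6) carried it. Per the study's methods, conditional Zeb1 (fl/fl) mice were crossed with this constitutive Cre line, in which the promoter of the collagen gene Col6a1 drives the Cre in fibroblasts, and Cre-negative littermates served as controls. Each plate held 1 mouse (n = 3 per genotype). Wells with 100 to 6000 genes and under 10% mitochondrial transcripts were kept, which left 1233 of 2304 wells.

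Keratins are the intermediate filament proteins of epithelial cells and assemble as pairs of a type I and a type II protein. Krt8 and Krt18 pair in simple epithelia such as the colon, with Krt19 beside them and Krt20 towards the differentiated surface, whereas Krt5 and Krt14 pair in the basal layer of stratified, squamous epithelia, where Krt15 marks less differentiated basal cells. Trp63 encodes p63, the transcription factor on which stratified epithelia depend. The colon is lined by simple epithelium, and stratified epithelium begins at the anal canal. EPCAM, the surface protein used for the depletion, is strong on simple epithelium and weak or absent on many squamous epithelia.

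In GRCm38 (GENCODE vM21), the members lie in 3 regions. Krt5 (chr15:101707070-101712898, minus strand, 9 exons), Krt8 (chr15:101996698-102004482, minus strand, 9 exons) and Krt18 (chr15:102028180-102032027, plus strand, 7 exons) share 1 keratin cluster. Krt20 (chr11:99428403-99438150, 8 exons), Krt15 (chr11:100131758-100135928, 8 exons), Krt19 (chr11:100140810-100148665, 6 exons) and Krt14 (chr11:100203162-100207548, 8 exons) share the other on the minus strand, and Trp63 (chr16:25683763-25892102, plus strand, up to 14 exons) lies apart. Reads were counted near the 3′ ends of transcripts. Of 451 stretches of 50 bases in the last 500 bases of the longest Krt14 transcript, 43 were shared with Krt16 or Krt17, so that some Krt14 reads could belong to these paralogs. Of the same number in Krt18, 5 were shared with the gene model Gm5200, and in the other 6 members none was shared with another gene. Krt5 and Krt8 each overlap a gene model on the opposite strand (Gm44323 and Gm36026), and Trp63 overlaps 1 on each strand (Gm24928 and Gm27005).

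The start-site windows of 1 squamous keratin and of the simple keratin pair are shown because the wells below separate along these genes. Each runs from 250 bases before to 50 bases after the RefSeq start (GRCm38.p6). Capitals mark matches, on either strand, to TATAAA or to the p53-family half-site, the short palindrome that p63 and its relatives bind.
Krt5 (chr15:101712856-101713155, minus strand): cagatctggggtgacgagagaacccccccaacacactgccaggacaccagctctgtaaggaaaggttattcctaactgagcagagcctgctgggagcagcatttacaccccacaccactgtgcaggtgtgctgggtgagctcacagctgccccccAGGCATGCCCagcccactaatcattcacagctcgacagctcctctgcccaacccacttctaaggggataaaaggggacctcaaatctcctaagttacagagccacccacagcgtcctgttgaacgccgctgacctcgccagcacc
Krt8 (chr15:102004293-102004592, minus strand): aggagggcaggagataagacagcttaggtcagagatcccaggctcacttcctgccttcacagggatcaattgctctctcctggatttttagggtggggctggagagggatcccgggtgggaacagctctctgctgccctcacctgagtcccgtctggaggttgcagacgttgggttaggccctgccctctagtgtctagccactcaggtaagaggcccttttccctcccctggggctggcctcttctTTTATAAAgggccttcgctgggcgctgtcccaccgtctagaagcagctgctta
Krt18 (chr15:102027966-102028265, plus strand): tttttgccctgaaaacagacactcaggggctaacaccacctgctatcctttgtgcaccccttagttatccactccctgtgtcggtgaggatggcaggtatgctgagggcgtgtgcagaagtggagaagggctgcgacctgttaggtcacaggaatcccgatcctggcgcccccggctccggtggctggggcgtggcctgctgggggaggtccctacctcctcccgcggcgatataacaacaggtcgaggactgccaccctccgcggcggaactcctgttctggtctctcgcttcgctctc
The Krt5 window held 1 half-site, which begins 95 bases before the start. Such a half-site stood in 8.36% of 32851 windows of this length. TATAAA stood in 13.6% of the windows, in that of Krt8 (2 overlapping matches, 1 on each strand) and in none of the other 2 printed here. Windows were at hand for 5 of the 8 members. Of the 2 not printed, that of the squamous keratin Krt14 (chr11:100205981-100206280), which lies inside the annotated gene, held 0 matches. That of Krt20 held 1 TATAAA. A match is a description of letters, not of binding.

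Total transcripts per plate ranged from 1575726 to 3699058, and the median kept well held 1687 to 11164 transcripts, lowest on plate 3. Plate 6 carried another sequencing run identifier than the other 5 plates, so that run and plate cannot be told apart there. The targeted gene Zeb1 stood at 102, 59.9 and 66.4 transcripts per 1000000 (CPM) on the Ctrl plates and at 55.1, 49.5 and 30.6 CPM on the deleted plates. The 2 genotypes did not overlap for Zeb1 (76.1 ± 22.7 against 45.0 ± 12.8 CPM, SD, n = 3 each) (exact permutation test, two-sided, p = 0.10, below which a design of 3 against 3 plates cannot go). The mesenchymal gene Vim was found in 845 of the 1233 kept wells, and Epcam, whose protein had been used for the depletion, still in 125.

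The squamous keratins were concentrated on plate 5. Krt5 stood at 84.8, 0 and 44.5 CPM on the Ctrl plates 1, 3 and 4 and at 17.3, 591 and 0 CPM on the deleted plates 2, 5 and 6, where the 0 of plates 3 and 6 allows up to 4.49 and 4.37 CPM (3 transcripts, counting error only). Krt14, its filament partner, stood at 55.7, 0 and 32.5 CPM on the Ctrl plates and at 14.4, 670 and 13.1 CPM on the deleted plates. Krt15 stood at 32.9, 1.5 and 23.0 CPM on the Ctrl plates and at 3.19, 110 and 0 CPM on the deleted plates. All 3 were highest on plate 5, next on plate 1 and then on plate 4, and the genotypes overlapped for each. Trp63 followed the same order, with 9.03, 0 and 8.52 CPM on the Ctrl plates and 5.41, 82.3 and 0 CPM on the deleted plates.

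The simple keratins were highest elsewhere. Krt8 stood at 39.5, 296 and 627 CPM on the Ctrl plates and at 1.27, 113 and 1261 CPM on the deleted plates. Krt18, its partner, stood at 16.0, 132 and 379 CPM on the Ctrl plates and at 4.46, 13.0 and 451 CPM on the deleted plates, and Krt19 at 16.4, 25.5 and 326 CPM against 0, 34.03 and 532 CPM. These 3 genes were highest on plate 6 and next on plate 4, 1 plate of each genotype, and lowest on plate 2. Krt20 stood at 0.410, 4.49 and 2.55 CPM on the Ctrl plates and at 0.318, 19.2 and 152 CPM on the deleted plates, but 93.2% of its transcripts on plate 6 came from 1 well. The squamous genes made up 88.4% of the keratin transcripts on plate 5, 85.2% on plate 2 and 70.5% on plate 1, against 6.97% on plate 4, 0.544% on plate 6 and 0.326% on plate 3.

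**Figure D1:**
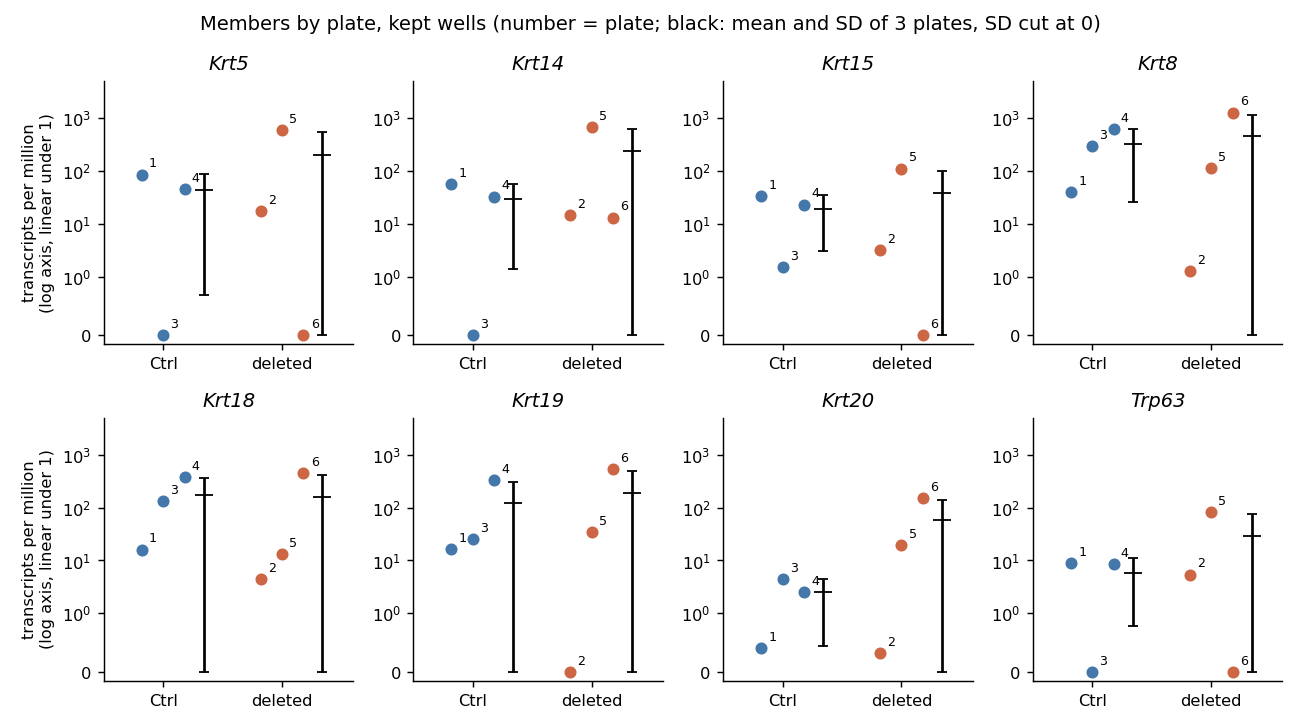
Each panel gives 1 member in transcripts per 1000000 of kept wells (log axis, linear under 1) for the 3 Zeb1Fib-Ctrl and the 3 Zeb1Fib-deleted plates. Points are plates, labelled with their number, and the black mark is the mean with its SD, cut at 0. Krt5, Krt14, Krt15 and Trp63 are highest on plate 5, Krt8, Krt18 and Krt19 on plates 6 and 4, and the genotypes overlap in every panel.

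Between the genotypes, no member differed beyond the spread between plates. The plates overlapped for 8 of 8 members, and exact two-sided permutation tests of the CPM gave p from 0.40 for Krt20 to 0.90 for Krt5, Krt15, Krt8 and Trp63 (smallest possible p 0.10). Over all 10424 genes tested by edgeR, 3.86% did not overlap between genotypes, 2.4% with all deleted plates higher and 1.46% with all lower. edgeR's quasi-likelihood test called 0 of 7 members tested (Krt20 was too low) and 0 of all genes (0% called at an adjusted p under 0.05), with 73 genes (0.7%) and 0 members at an unadjusted p under 0.05. DESeq2 called 1 gene, Dlk1, and had 61 at an unadjusted p under 0.05. Krt14 had the largest fitted difference of the members, a log2 fold change of 2.90 for deleted over Ctrl (edgeR, adjusted p = 1), and without plate 5 it was -1.17. Without plate 5, Krt5, Krt15 and Trp63 also turned to lower values in the deleted plates (-2.13, -3.16 and -0.90), and without plate 6 Krt8 and Krt19 did (-2.54 and -2.84). Krt8 also turned without plate 1 (-0.07), and Krt18, at -0.21 over all plates, turned to higher values without plate 2, 4 or 5 (0.36, 0.77 and 0.33). Fewer epithelial wells and fewer transcripts per well cannot be told apart in a plate sum, and the well counts follow.

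Well by well, the 2 keratin groups were largely exclusive. A squamous-keratin well was defined by at least 5 keratin transcripts, of which at least 80% came from Krt5, Krt14 and Krt15, and a simple-keratin well by the same number, of which at least 80% came from Krt8, Krt18, Krt19 and Krt20. Of 99 kept wells with at least 5 keratin transcripts, 31 were squamous-keratin wells, 65 simple-keratin wells and only 3, all on plate 5, mixed. Another 331 wells had 1 to 4 keratin transcripts and 803 had none. Near the threshold, 9 wells held exactly 5 and 22 exactly 4 keratin transcripts. All 31 squamous-keratin wells, but only 44 simple-keratin wells, still counted at a threshold of 10.

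**Figure D2:**
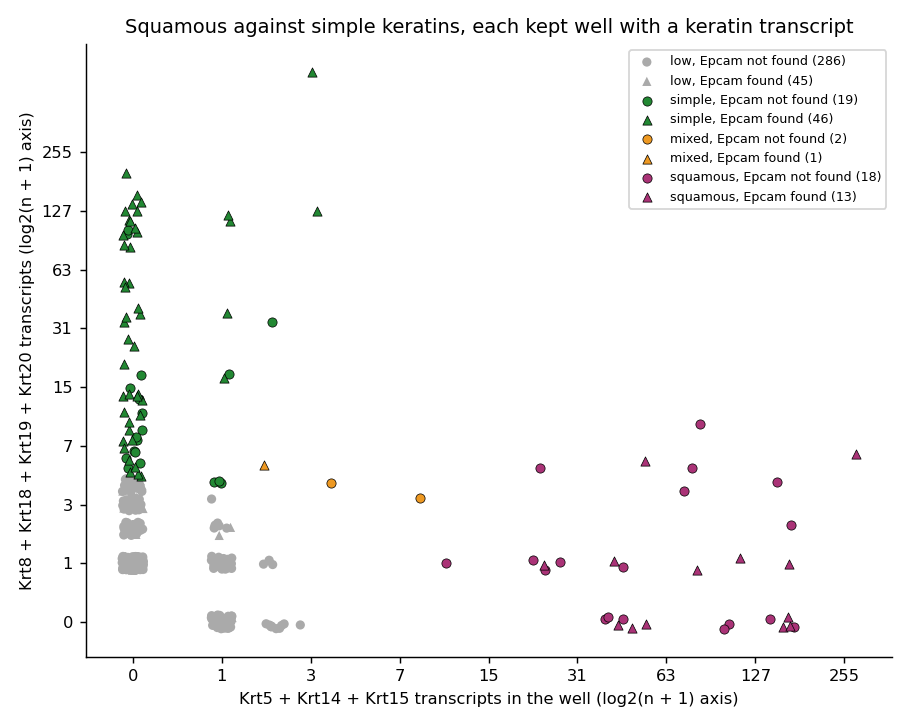
Each point is 1 of the 430 kept wells with a keratin transcript, with the sum of Krt5, Krt14 and Krt15 on the x axis and the sum of Krt8, Krt18, Krt19 and Krt20 on the y axis (both log2(n + 1), with a small jitter). Colour gives the keratin class and triangles mark wells with an Epcam transcript. The 31 squamous-keratin wells lie along the x axis and the 65 simple-keratin wells along the y axis, with 3 mixed wells between them.

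The 31 squamous-keratin wells came from 4 plates and mostly from plate 5. Plate 5 held 25 of them (10.3% of 243 kept wells, 95% exact binomial interval 6.77 to 14.8%), plate 1 held 3, plate 2 held 2 and plate 4 held 1. Plates 3 and 6 held 0 of 221 and 0 of 109 kept wells, which allows shares of up to 1.36% and 2.75%. The simple-keratin wells came mostly from plates 4 and 6, with 28 wells (20.6% of 136, 14.1 to 28.4%) and 25 wells (22.9% of 109, 15.4 to 31.97%). Plates 1, 2, 3 and 5 held 4, 1, 2 and 5 simple-keratin wells. These intervals cover counting error within a plate and not the spread between mice.

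**Figure D3:**
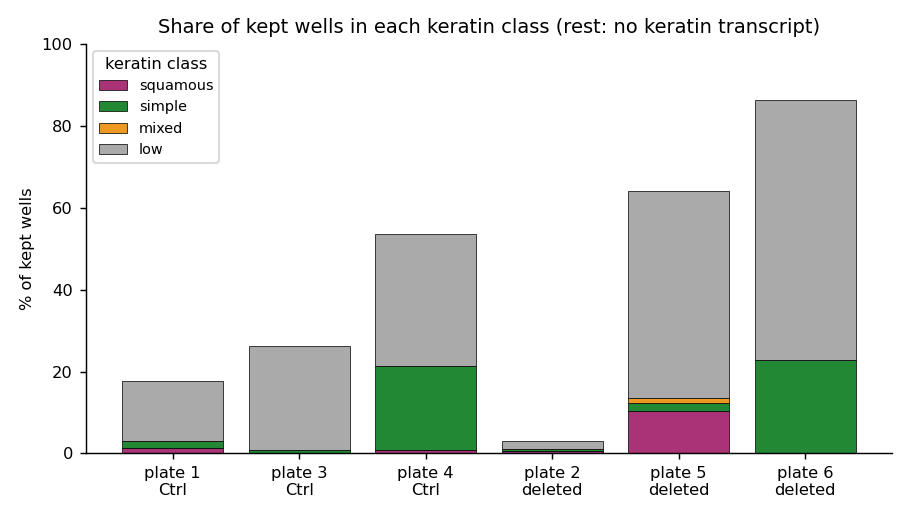
Stacked bars give the percentage of kept wells of each plate in the squamous, simple, mixed and low (1 to 4 transcripts) keratin classes, with the 3 Zeb1Fib-Ctrl plates to the left of the 3 Zeb1Fib-deleted plates. Squamous-keratin wells reach 10.3% on plate 5, and simple-keratin wells 20.6% and 22.9% on plates 4 and 6.

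In the squamous-keratin wells, Krt14 was found in 31 of 31 (median 32 transcripts, highest 94), Krt5 in 25 (median 31, highest 142) and Krt15 in 17 (highest 50). These values made the class and carry no test. Trp63 was not used to define it, and was found in 27 of the 31 wells (median 5 transcripts, highest 14) and in 0 of the 65 simple-keratin wells, which allows a share of wells with a transcript, not of cells expressing the gene, of up to 4.62%. All 23 kept wells with more than 1 Trp63 transcript were squamous-keratin wells, from all 4 plates that held such wells. Outside them 7 wells held 1 Trp63 transcript each, 3 with 1 to 4 keratin transcripts and 4 with none, all on plate 5. At an equal depth of 1000 barcodes per well, with the classes rebuilt from at least 3 keratin barcodes and shallower wells left out, Trp63 was found in 9 of 23 squamous-keratin and 0 of 44 simple-keratin wells.

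In the simple-keratin wells, Krt8 was found in 62 of 65 (median 9 transcripts, highest 332), Krt18 in 54 (median 6, highest 54), Krt19 in 50 (median 3, highest 159) and Krt20 in 7. The filament partners Krt8 and Krt18 occurred together in 51 wells, and Krt8, Krt18 and Krt19 in 42. Some sharing was seen at low level: 18 squamous-keratin wells held a simple keratin, with at most 7 transcripts of any one, and 11 simple-keratin wells a squamous keratin, with at most 3. Of all transcripts in kept wells, the squamous-keratin wells held 96.2% for Krt5, 94.1% for Krt14, 96.6% for Krt15 and 96.2% for Trp63. For the simple keratins the simple-keratin wells held 84.4% for Krt8, 92.2% for Krt18, 88.7% for Krt19 and 85.3% for Krt20.

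Krt8 was also the member most often found in wells with immune transcripts. Among 256 kept wells with more than 1 transcript of Ptprc, the gene of CD45 on immune cells, Krt8 was found in 23.8% (median depth 2132.5 transcripts), Krt19 in 10.5%, Krt18 in 5.08% and Krt14 in 3.52%. Krt5 was found there in 0.781%, Trp63 in 0.391% and Krt15 in 0 of 256. Of these 256 wells, 3 had a keratin class. The plates differed: Krt8 ran from 0 of 38 such wells on plate 2 to 32.4% of 37 on plate 5 and 59.6% of 47 on plate 6. Krt14 was highest on plate 5, at 16.2%. In the keratin-class wells (median depth 12095 transcripts) the shares were 79.8% for Krt8, 41.4% for Krt14 and 27.3% for Trp63. The shares of wells with 1 to 4 keratin transcripts, 50.6% on plate 5 and 63.3% on plate 6, are thus not read as expression.

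A few very large wells carried most simple-keratin transcripts of the series. In all, 6 wells held more than 100000 transcripts each, all above the limit of 6000 genes and so outside the kept wells, 3 on plate 4 and 1 each on plates 3, 5 and 6. Together they held 71.0% of all Krt8, Krt18, Krt19 and Krt20 transcripts and 3.85% of all Krt5, Krt14 and Krt15 transcripts. The largest, on plate 5, held 742167 transcripts with 5410 of Krt8, 2979 of Krt19, 949 of Krt18, 548 of Krt20, 138 of Krt14 and 1127 of Epcam, and made up 68.7% of the keratin transcripts of its plate. Wells with 1 to 4 keratin transcripts were 25.3 to 63.3% of kept wells on the 4 plates with such a well, and 14.6% and 2.01% on plates 1 and 2, which had none. On plate 5, Krt8 made up 54.7%, Krt19 30.1%, Krt18 9.60% and Krt20 5.54% of the simple keratins in the large well, and 69.6%, 18.8%, 3.57% and 8.04% in the wells with 1 to 4. Whether the large wells gave rise to these low counts was not tested.

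After the EPCAM depletion, Epcam transcripts were fewer in squamous-keratin than in simple-keratin wells, but too few plates held both classes to test this against the spread between plates. The part of the depletion in this difference was not tested. Epcam was found in 13 of 31 squamous-keratin wells (51.2 CPM, at most 4 transcripts) and in 46 of 65 simple-keratin wells (430 CPM, up to 88 transcripts). On the 4 plates with both classes, its level was lower in the squamous-keratin wells on 3 and equal at 0 on plate 2 (exact two-sided sign-flip permutation test over plates, p = 0.25). With the 0 of plate 2, this test could not give a smaller p, so that it cannot decide. Plate 2 held only 1 simple-keratin well and plate 4 only 1 squamous-keratin well. The share of wells with Epcam was lower on 1 of the 4 plates only (p = 1 in the same exact test). At 1000 barcodes per well, Epcam was found in 0 of 23 squamous-keratin and 15 of 44 simple-keratin wells. The study set aside cells high in Ptprc and Epcam before its fibroblast analysis. Leaving out wells with more than 1 transcript of either gene, a threshold chosen here, left 24 of the 31 squamous-keratin wells and 25 of the 65 simple-keratin wells.

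Fibroblast genes were low in the squamous-keratin wells, whereas the simple-keratin wells differed between plates. At least 5 of the 10 listed genes were found in 24 of 31 squamous-keratin wells, 46 of 65 simple-keratin wells and 543 of 803 wells without keratin. The 10 listed genes, all of them found in both classes, took a median of 0.120% of the transcripts in squamous-keratin wells, 0.156% in simple-keratin wells, 0.952% in wells with 1 to 4 keratin transcripts and 2.41% in wells without. Their summed level ranged from 656 to 8453 CPM over the 4 plates with squamous-keratin wells and from 1929 to 51004 CPM over the 6 plates with simple-keratin wells, whose fibroblast share was 2.09% and 1.81% (medians of 4 and 5 wells) on plates 1 and 5, against 4.38% and 0.847% in the wells without keratin of the same plates. On plates 4 and 6 it was 0.114% and 0.130% in simple-keratin wells, against 1.42% and 0.213% in wells without keratin, so that the pooled medians mix plates that differ. Vim, the filament of mesenchymal cells, was found in 12 of 31 squamous-keratin and 45 of 65 simple-keratin wells, and Zeb1 in 0 and 11.

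**Figure D4:**
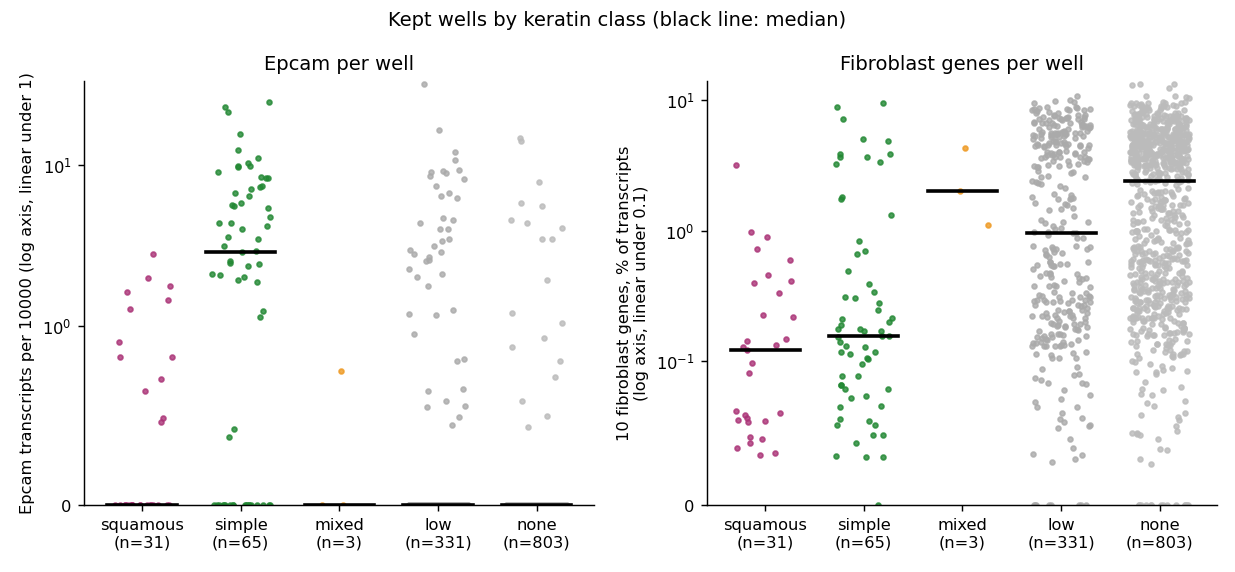
Each point is a kept well, grouped by keratin class, with Epcam in transcripts per 10000 to the left and the share of 10 fibroblast genes in percent to the right (log axes with a linear part near 0). Black lines are medians. Epcam has a median of 0 in the 31 squamous-keratin wells, and the fibroblast share has medians of 0.120% and 0.156% in the squamous and simple classes against 2.41% in the 803 wells without keratin.

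All other genes were then compared between the classes, on sums of plates 1 and 5, the plates with at least 3 wells of each class (3 and 25 squamous-keratin, 4 and 5 simple-keratin wells). A few fibroblast-rich wells weighed heavily in the simple-keratin sums. On plate 1, 2 wells with fibroblast shares of 3.90% and 9.47% held 60.4% of the transcripts of the sum, and on plate 5, 2 wells with 5.03% and 7.23%, each with exactly 5 keratin transcripts, held 73.7%. With the plate as a block, edgeR's quasi-likelihood test called 123 of 1329 genes higher (9.26%) and 201 lower (15.1%) in squamous-keratin wells at an adjusted p under 0.05. Trp63, the only tested member that had not made the classes, was called higher: it stood at 697 and 313 CPM in squamous-keratin wells of plates 1 and 5 and at 0 in the simple-keratin wells of both (log2 fold change 9.04 ± 1.46 (SE), which depends on the prior count, adjusted p = 3.13e-08). Since Trp63 was at 0 in the simple-keratin sums, it entered the test through the squamous-keratin sums alone, which fixed its direction. These 4 sums leave 1 residual degree of freedom, and the spread is mostly borrowed across genes. DESeq2 called 18 higher and 117 lower, and gave Trp63 an adjusted p of 0.26. Leaving out plate 2, 3, 4 or 6 does not touch these sums. Over the 10 alternative fits that differed from this fit and from each other, Trp63 had an adjusted p from 7.52e-10 to 0.26 and was called in 7. Without plate 1 or plate 5 no block was possible, and the remaining squamous-keratin sum stood alone against 3 simple-keratin sums, those of plates 4 and 6 included, so that it is assumed to vary like them. The counts were then 0 and 0 without plate 1 (1336 genes at an unadjusted p under 0.05, DESeq2 not run) and 4 and 0 without plate 5 (818 genes).

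The genes of basal attachment and of desmosomes were called in 1 direction only, against simple-keratin sums in which fibroblast-rich wells weighed heavily. The part of those wells was not tested. Pooled over all plates, the hemidesmosome list stood at 2147 CPM in squamous-keratin and 2805 CPM in simple-keratin wells. Its median over plates was 4263 and 1967 CPM. The desmosome list stood at 2130 and 1184 CPM in the pooled wells. Of 8 tested among 12 listed genes of hemidesmosomes and basal adhesion, 2 were higher and 0 lower (median log2 fold change 0.95, against -0.04 over all genes tested): Col17a1, a hemidesmosome collagen (8.66 ± 1.63), and Bcam, a laminin receptor (3.07 ± 0.91). Of 6 tested among 10 listed desmosome genes, 3 were higher and 0 lower (median 2.20): the plaque protein Pkp1 (4.43 ± 1.70), the p63 target Perp (3.81 ± 0.78) and desmoplakin, Dsp (2.05 ± 0.71). Of 16 listed squamous differentiation genes, 13 did not pass the filter on low counts in these sums and the other 3 were higher: Lgals7, a galectin of stratified epithelia (8.82 ± 1.53), the fatty acid binding protein Fabp5 (6.41 ± 0.86) and stratifin, Sfn (3.33 ± 0.75). Lgals7 was found in 31 of 31 squamous-keratin and 0 of 65 simple-keratin wells, so that Lgals7, like Col17a1 (at 0 in both simple-keratin sums), entered the test through the squamous-keratin sums alone and the count of this list says little. Among the untested genes, Sprr1a was found in 5 squamous-keratin and 15 simple-keratin wells. With the threshold of 10 keratin transcripts, where the simple-keratin wells of plates 4 and 6 enter without a block, Bcam (edgeR, adjusted p = 0.28), Sfn (0.067) and Dsp (0.85) did not pass. Their log2 fold changes were then 1.08, 1.78 and 0.22. DESeq2 did not call Col17a1 (adjusted p = 0.34), Bcam (0.11), Pkp1 (0.13), Dsp (0.25) or Lgals7 (0.28), and called Perp, Sfn and Fabp5.

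Of 21 listed glandular colon genes, 19 did not pass that filter and the other 2 were lower: the tight junction gene Cldn3 (-7.64 ± 1.90), found in 0 of 31 squamous-keratin and 37 of 65 simple-keratin wells and so tested through the simple-keratin sums alone, and Lypd8, a secreted protein of colonocytes (-4.34 ± 0.80). Of 3 tested among 14 listed pan-epithelial genes, the transcription factor Ehf was higher (3.64 ± 1.44), whereas Cdh1, E-cadherin, had a log2 fold change of -1.03 ± 0.64 (edgeR, adjusted p = 0.25). Epcam was not among the genes tested. With the threshold of 10, Lypd8 and Ehf were no longer called (edgeR, adjusted p = 0.19 and 0.62), and DESeq2 did not call Ehf (adjusted p = 0.17). All 10 fibroblast genes were lower in the squamous-keratin wells (median -5.26), among them Vim (-6.50 ± 0.59), Col1a1 (-5.98 ± 0.50), Pdgfra (-5.46 ± 1.02) and Fstl1 (-5.40 ± 0.61). This stands beside the 4 fibroblast-rich wells in the simple-keratin sums of these 2 plates, whose part in the result was not tested. With the threshold of 10, Col1a1 and Fstl1 were no longer called (edgeR, adjusted p = 0.059 and 0.090).

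**Figure D5:**
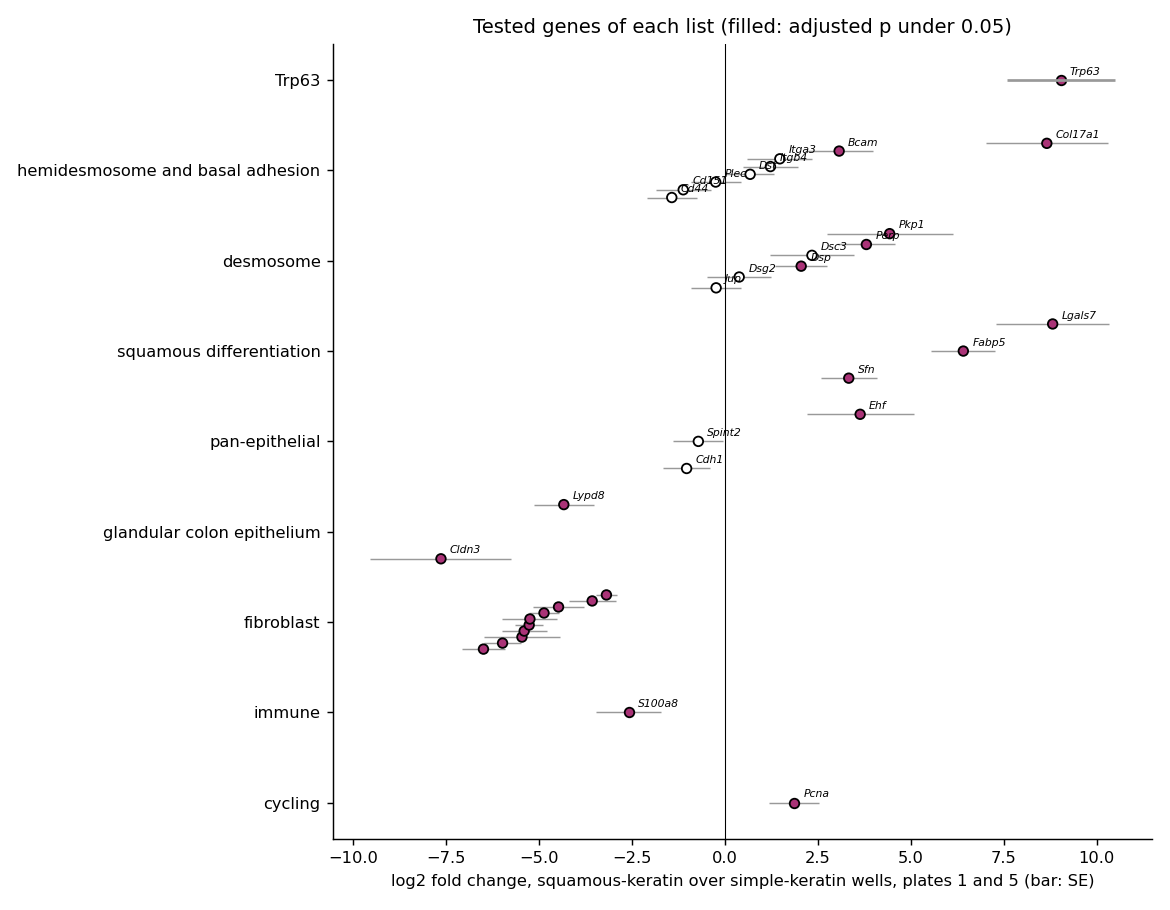
Points are the tested genes of each list, with the log2 fold change of squamous-keratin over simple-keratin wells of plates 1 and 5 on the x axis and bars for the SE. Filled points passed an adjusted p of 0.05 in edgeR. Trp63, basal, desmosome and squamous differentiation genes that passed lie to the right, and the 2 glandular genes and the 10 fibroblast genes lie to the left.

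Beyond the lists, Wfdc2 (7.49), the prostaglandin dehydrogenase Hpgd (5.69), the carbonyl reductase Cbr2 (5.07), the carbonic anhydrase Car12 (4.99) and the transcription factor Gata3 (4.43) completed the 10 highest log2 fold changes with Trp63, Lgals7, Col17a1, Fabp5 and Pkp1. With the threshold of 10, Wfdc2 was at 0.58 (edgeR, adjusted p = 0.71). The 10 lowest were Cldn3 and 9 others: Cd248 (-8.13), Olfml2b (-8.05), Loxl2 (-7.96), Scube1 (-7.86), Adamdec1 (-7.73), Col6a3 (-7.69), Ddr2 (-7.58), Tmem100 (-7.44) and Dpysl3 (-7.39). Each of these 9 was found in 27.1 to 51.6% of the wells without keratin, and the part of the fibroblast-rich simple-keratin wells was not tested. With the threshold of 10, Loxl2, Col6a3 and Dpysl3 were still called, whereas Olfml2b (edgeR, adjusted p = 0.073) and Scube1 (0.080) were not. Cd248, Adamdec1, Ddr2 and Tmem100 were not tested there. DESeq2 called each of these 9. The smaller lists gave 1 called gene each at most: the neutrophil gene S100a8 was lower (-2.59 ± 0.87, but 1.67 with the threshold of 10) and the replication gene Pcna higher (1.86 ± 0.67), whereas Acta2, a smooth muscle gene, was at -0.77 ± 1.26 (edgeR, adjusted p = 0.72). DESeq2 called neither S100a8 (adjusted p = 0.29) nor Pcna (0.23), and Pcna did not pass with the threshold of 10 (edgeR, adjusted p = 0.055). No mesothelial, mural, endothelial or glial gene was tested. Msln, a mesothelial gene, was found in 21 simple-keratin and 0 squamous-keratin wells, and Nkain4 in 1 and 0. Bnc1, on the same list, ran the other way with 0 and 12, and is not read as a mesothelial marker here. The mural genes Pdgfrb, Rgs5 and Notch3 were found in 2, 0 and 3 squamous-keratin wells. Of 5 endothelial genes, 1 was found in squamous-keratin wells (4.27 CPM over the list), and of 4 glial genes none.

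Across single wells, the genes most like Krt14 were Sfn (mean within-plate r 0.63), Perp (0.61), Serpinb5 (0.59), Dsp (0.56) and Krt17 (0.53), over 3 plates (1, 5 and 6). Krt5 was at rank 7 (0.50, highest plate 0.89) and Trp63 at rank 8 (0.50, highest plate 0.87). Plate 6 held no transcript of these 2 genes, which entered the mean as r 0, and only 9 of Krt14. Krt8 was most like its partner Krt18 (0.49), followed by Cldn3, Cldn4, Epcam and Cldn7, over 5 plates. Trp63 was most like Pkp1 (0.72), followed by Perp, Moxd1, Krt5 and Sfn, on plate 5 alone. These values describe co-occurrence among wells that share a library and differ in depth.

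Other keratins differed in where they were found. Krt79, a keratin of sebaceous and hair follicle ducts, was found in 15 squamous-keratin wells, all on plate 5, and in 0 simple-keratin wells. Krt17 was found in 16 and 14, and Krt6a in 7 and 3. Krt7 was found in 48 simple-keratin and 7 squamous-keratin wells, but in the class contrast, where it was the only other keratin tested, it was not called (log2 fold change -0.91, edgeR, adjusted p = 0.63). Krt23 was found in 30 simple-keratin and 1 squamous-keratin wells, Krt36 in 12 and 1, and Krt4 in 9 and 0. Krt10, a keratin of differentiated epidermis, was found in 5 squamous-keratin and 3 simple-keratin wells, and in 6.10% of the wells without a member keratin.

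Within the 25 squamous-keratin wells of plate 5, Krt5 was found in 19 and not in 6, a split chosen after the values were seen. The 6 wells without Krt5 held Krt14 (median 22 transcripts), Krt79 in 6 of 6 (median 20.5), Fabp5 in 6 of 6 (median 119.5) and Trp63 in 3 of 6, with Krt17 in 0 and Krt15 in 1. The 19 wells with Krt5 held Krt14 in 19 (median 40), Krt79 in 9 (median 0), Fabp5 in 15 (median 7), Trp63 in 18, Krt17 in 11 and Krt15 in 11. The 3 squamous-keratin wells of plate 1 held all 3 squamous keratins each, with Krt5 at 43 to 102, Krt14 at 32 to 63 and Krt15 at 20 to 37 transcripts, no simple keratin and no Epcam.

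The simple-keratin wells also differed between plates. Krt20 was 16.7% of the simple keratins in the 5 wells of plate 5 and 6.74% in the 25 of plate 6, but 1 well on each held 19 of 21 and 97 of 100 of these transcripts. Without those wells the shares were 4.26% and 0.350%, against 0.067% in the 28 wells of plate 4 and 0% in the 4 of plate 1. Lypd8 stood at 4412 and 4537 CPM in the simple-keratin wells of plates 5 and 6 against 673 and 15.9 CPM on plates 4 and 1. Krt7 ran otherwise, with 944 CPM on plate 4, 360 on plate 6, 302 on plate 1 and 23.6 on plate 5, and so did the tight junction gene Cldn4 with 1043, 786, 1445 and 35.4 CPM. These CPM are levels in class sums, and fibroblast-rich wells held 60.4% and 73.7% of the transcripts in those of plates 1 and 5. Krt7 on plate 5 rests on 2 transcripts. The part of the fibroblast-rich wells in these values was not tested. No test was run between plates, each of which is 1 mouse.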

How the data were processed

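Transcripts of single cells were measured by SORT-seq (CEL-Seq2 chemistry with unique molecular identifiers) on 6 plates, 3 per genotype. Per the study's methods, the authors mapped reads with bwa to the GRCm38 transcriptome, and the submitters' processing notes name Cell Ranger and BWA. The deposited barcode tables hold whole counts of molecular identifiers per gene and well. The deposited transcript tables hold estimated counts, which the authors had corrected for identifiers that coincide, and these were used here, rounded for each test. Spike-in RNA was left out. The 384 well names are shared by all plates by design, and no doublet caller was run.

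Wells with 100 to 6000 genes and a mitochondrial share under 10% passed. Levels are transcripts per 1000000 of the summed kept wells. Sums per plate (genotype) and per plate and keratin class were tested with the quasi-likelihood test of edgeR 4.0.16, with TMM factors, the filterByExpr filter and Benjamini-Hochberg adjustment, in R 4.3.3, with DESeq2 1.42.0 as an alternative, and single members with exact permutation tests. On data simulated for the genotype contrast (10470 genes tested) edgeR recovered 39.4, 97.0 and 100% of 2-fold, 4-fold and 8-fold changes. In the class contrast (1301 genes) it recovered 37.9, 98.3 and 100%. The simulation gave every gene the same spread between sums, with no differences between plates, and changed only genes above a minimum count. These shares are thus not read for the members or for the real class contrast. Recovery at their spread between plates, such as 1.27 to 1261 CPM for Krt8, was not tested. Shares carry exact binomial (Clopper-Pearson) 95% intervals and a count of 0 an upper limit of 3 counts, both for counting error only. Likeness is the Pearson r of log2(transcripts per 10000 + 1) over kept wells of a plate with at least 5 wells holding the gene, averaged over plates, among genes in at least 30 kept wells. Replicate numbers follow accession order.

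The members, the gene lists and the tests were chosen with earlier results of these data known. Named are the 8 members, up to 4 called genes of each list with the largest log2 fold change between the classes (if none was called, up to 3 with the highest level), the 10 called genes with the largest change each way, the 5 genes most like Krt14, Krt8 and Trp63, other keratins in at least 10 kept wells, and Zeb1. Other genes were named after their values were seen. The alternatives were other count tables, filters, normalizations, thresholds of wells and classes, depths, and each plate left out. The limits without a mitochondrial threshold, and of 30% for the class contrast, were added after the data had been seen.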

Additional observations from a re-analysis of the deposited data

Results flagged for a closer look

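The wells removed for 10% or more mitochondrial transcripts, which enter no comparison above, held further keratin wells beyond the level of the control plates. On plate 5 (Zeb1Fib-deleted), 36 of 137 such wells met the squamous-keratin definition, against at most 1 on any other plate. On plate 6 (Zeb1Fib-deleted), 75 of 260 met the simple-keratin definition, against 34 of 221 on plate 4, the highest control plate. The other deleted plates held 4 of 71 (plate 2) and 1 of 137 (plate 5), so that this is a value of 1 plate. Trp63 was found in 34 of the 37 removed squamous-keratin wells of all plates and in 0 of the 125 removed simple-keratin wells, and Epcam in 13 and 95. The removed squamous-keratin wells of plate 5 had a median mitochondrial share of 14.7% and the removed simple-keratin wells of plate 6 of 28.4%. Of the 36 removed squamous-keratin wells of plate 5, Krt5 was missing in 12, all of which held Krt79 (median 22 transcripts) and Fabp5 (median 158). The 24 with Krt5 held Krt79 in 22 (median 8) and Fabp5 in 23 (median 19). Trp63 was found in 11 of the 12 and in 22 of the 24, so that in removed wells these genes differed in level more than in detection. The removed wells took 42.2% of the squamous and 48.5% of the simple keratin transcripts of wells with 100 to 6000 genes, and 33.5% of all transcripts. These wells come from the same mice as the kept wells, and the difference between genotypes was not tested.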

How the results depend on the processing

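No member was called between the genotypes under any alternative. Leaving out each plate, the log2 fold change (deleted over Ctrl) ran from -2.13 to 3.21 for Krt5, -1.17 to 3.83 for Krt14, -3.16 to 1.6 for Krt15, -2.54 to 1.14 for Krt8, -4.37 to 0.77 for Krt18, -2.84 to 2.93 for Krt19 and -0.90 to 2.68 for Trp63. The CPM differences ran from -34.5 to 261, -15.6 to 313, -17.6 to 37.7, -263 to 367, -167 to 81.9, -106 to 168 and -3.14 to 38.0 in the same order, and from 7.27 to 82.9 for Krt20. Without Ptprc or Epcam wells, Krt19 turned to -0.29. DESeq2 called 1 gene higher in the deleted plates in place of 0. In the class contrast, DESeq2 called 18 higher and 117 lower, no filter 70 higher, the fit without plate block 81 lower (this fit also takes in the simple-keratin wells of plates 4 and 6 and tests 4935 genes), and 30% or no mitochondrial limit 75 higher. Leaving out each plate, which changes the sums for plates 1 and 5 only, gave 0 to 123 higher and 0 to 201 lower, and -1.94 to 1.81 for Acta2. Acta2 turned to 0.40 at the threshold of 10 and 0.11 at a purity of 90%, and S100a8 to 1.67 at the threshold of 10, the cause of which was not tested. Among values of single genes and plate levels, 544 kept their direction and their side of the threshold, 122 lost a call and 25 reversed. Calls were lost most often without plate 1 or plate 5, where 1 squamous-keratin sum stood alone in the class contrast. Without plate 5, 11 values reversed. Another 17 calls were lost in the fit without plate block and with plates 4 and 6, and 11 with DESeq2. The 544 include class fits without plate 2, 3, 4 or 6, whose sums are those of the main fit and could not change.

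Squamous-keratin wells numbered 6 to 31, simple-keratin wells 37 to 64 and mixed wells 0 to 3 with each plate left out, and 68, 142 and 6 at a 30% and 68, 190 and 7 at no mitochondrial limit. At a threshold of 3 there were 118 simple-keratin and 16 mixed wells, at 10 there was 1 mixed well, and at a purity of 90% there were 8. Epcam was found in 50.8% and 81.8% of simple-keratin wells at thresholds of 3 and 10. At 1000 barcodes, Epcam was found in 0% of squamous and 34.1% of simple-keratin wells, and Trp63 in 39.1% of squamous-keratin wells. There, 5 or more fibroblast genes were found in 0% of squamous and 11.4% of simple-keratin wells, against 77.4% and 70.8% at full depth. Leaving out each plate gave 16.7 to 46.4% for Epcam and 85.7 to 100% for Trp63 in squamous-keratin wells. No paired analysis was possible because the labels give no replicate numbers that are shared between genotypes. With 3 plates per genotype, the design cannot give an exact p under 0.10, and the class contrast rests on 2 mice.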
